A study of Mus musculus with 15 samples.

Results

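Transcripts of 10 genes that set the passage of a cell from G1 into S phase were examined out of 55291 genes in the tables, chosen by symbol: the D-type cyclins Ccnd1, Ccnd2 and Ccnd3, the E-type cyclins Ccne1 and Ccne2, cyclin A2 (Ccna2), the Cip/Kip inhibitors Cdkn1a (p21), Cdkn1b (p27) and Cdkn1c (p57), and the INK4 inhibitor Cdkn2b (p15). All 10 were found in each table by symbol, and all 10 passed the filter on low values in each comparison, a mean normalized count of at least 10 over the libraries fitted. Cdkn1c passed it without Gln, and between DON and noGln, only through the control libraries, with a mean of 5.48 without Gln against 39.4 in controls. RNA-seq was made from HY19636, a single murine PDAC line from a C57BL/6 mouse with a floxed p53 allele under Ptf1a-Cre, so every group, controls included, carries p53 mut. In culture, 3 samples were treated with DON, a Gln analog that inhibits Gln-using enzymes, at 25 µM for 24 h, 3 were kept without Gln for 24 h (noGln) and 3 were controls (CNT). Orthotopic HY19636 tumors in the pancreata of B6J mice came from animals that received the DON prodrug DRP-104 (3 tumors) or vehicle (VEH, 3 tumors), and were collected on day 21. DRP-104 was dosed at 3 mg/kg in 2 cycles of 5 days on and 2 days off.

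Progress through G1 is driven by cyclin-dependent kinases (CDKs). D-type cyclins bind CDK4 and CDK6, which start to phosphorylate the retinoblastoma protein and its relatives, and cyclin E with CDK2 completes that step and frees E2F factors to switch on genes of DNA synthesis, cyclin E and cyclin A among them. Cyclin A with CDK2 then acts in S phase. INK4 proteins bind CDK4 and CDK6 and keep D-type cyclins off them, whereas Cip/Kip proteins bind whole cyclin-CDK complexes, and p21 is the best known transcriptional target of p53. In PDAC the INK4 locus that encodes p15, p16 and Arf is often lost.

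Depth was 25.2 to 48.2 M (mega) reads in the cultures and 16.3 to 20.7 M in the tumors, recovered from the normalized counts. The 48.2 M belonged to control 3, against 27.1 and 27.2 M in controls 1 and 2. Even read numbers were more common in the cultures than in the tumors, and whether both count reads in the same unit was not tested. The control columns in both culture tables were headed with the vehicle label and were taken as control cultures from the names of the tables. Their reads were the same in both culture tables for 55291 of 55291 genes and equaled those of a vehicle tumor for at most 0.156% of genes. DON and noGln are therefore compared with the same 3 control libraries. Tumor epithelial markers (Krt8, Krt18, Krt19, Epcam and Cdh1) were all above 0 in every culture, and their summed normalized count was 328447 to 424061 in controls, 108927 to 117157 on DON and 133319 to 146613 without Gln. No source states that the 3 cultures of a group were grown apart, so their p-values measure the spread between these samples, which may be technical.

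In cells, Ccna2 and Ccne1 fell most among the member cyclins. Ccna2 was 5.77-fold lower on DON and 4.67-fold lower without Gln than in controls, and Ccne1 was 4.87-fold and 4.31-fold lower. Ccnd1 was 3.39-fold lower on DON and 1.20-fold lower without Gln. Cdkn1a was higher in both conditions, 1.86-fold on DON and 2.75-fold without Gln, and Cdkn2b was higher on DON only, at 1.58-fold. Differences were tested with limma on log2(normalized count + 1) of genes with a mean of at least 10, with Benjamini-Hochberg adjustment over all genes, and a gene was called at an adjusted p under 0.05. After DON 10 of 10 members were called, 2 higher and 8 lower, where 68.1% of 13556 genes were called, 33.3% higher and 34.7% lower. Without Gln 8 of 10 were called, 1 higher and 7 lower, against 69.4% of 13390 genes, 34.5% higher and 34.9% lower. With a filter that leaves out Cdkn1c (a mean of at least 50), 9 of 9 members were called on DON and 7 of 9 without Gln. The median log2 fold change of the members was -0.82 on DON and -0.27 without Gln, beside 0.02 and 0.01 over all genes tested. With 3 libraries against 3, an exact permutation test of 1 gene cannot go below 0.1, and that value was reached by 10 members on DON and 7 without Gln. A gene reaches it when the values of its groups do not overlap. The share of all genes that reach it in the cultures was not computed, so these counts are not a result about the members.

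**Figure D1:**
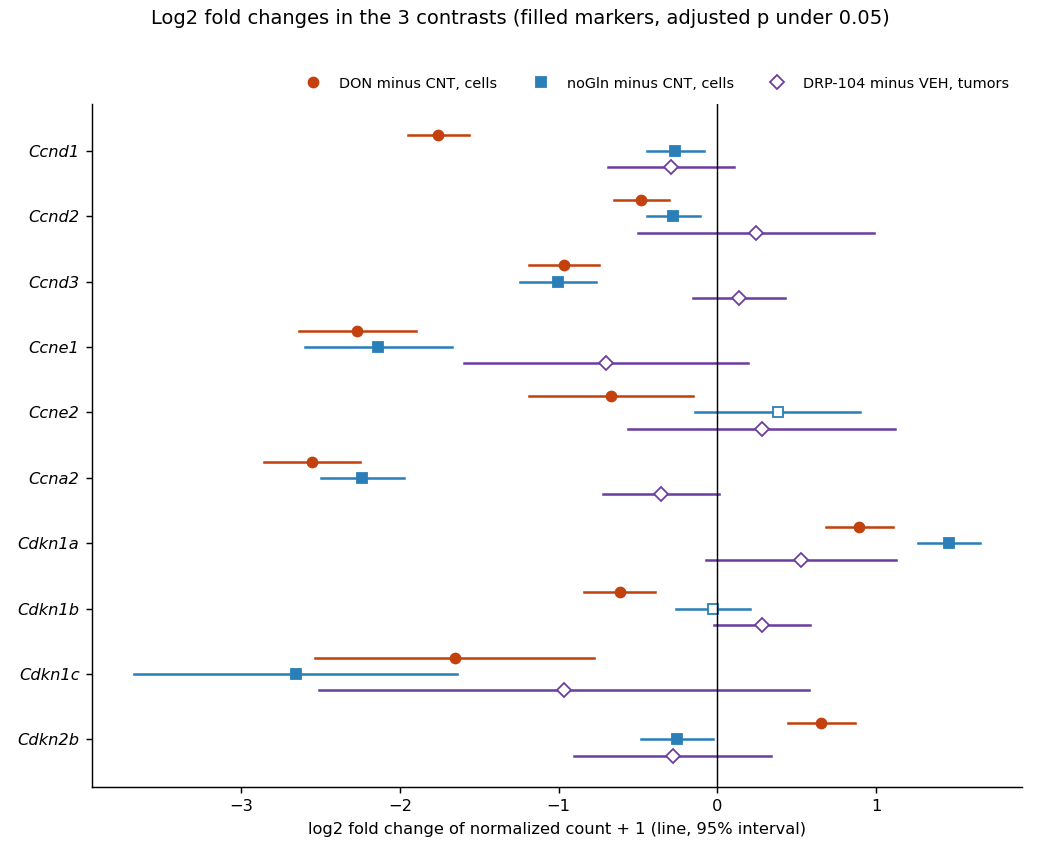
Log2 fold change of each member (horizontal axis, on normalized count + 1) for DON minus CNT, noGln minus CNT and DRP-104 minus VEH, with the 95% limma interval as a line and filled markers for an adjusted p under 0.05. Ccnd1 lies at -1.76 on DON and -0.26 without Gln, Cdkn2b lies on opposite sides of 0 in those 2 contrasts, and all 10 tumor intervals include 0.

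Cyclin D1 (Ccnd1; chr7:144929931-144939869, minus strand, GRCm38), the most abundant member per length in control cells, separated the culture treatments most. Its normalized counts were 8571, 8384 and 8151 on DON against 28467, 30491 and 26187 in controls. Without Gln they were 22502, 22062 and 22684 against 26829, 28801 and 25256 in the same controls, scaled in that table. Neither treated group overlapped its controls, but the Gln-free cultures stayed close to them. The log2 fold change was -1.76 ± 0.0896 (SE; adjusted p = 8.48e-10) on DON and -0.26 ± 0.0828 (adjusted p = 0.0122) without Gln. The call without Gln rested on single libraries, since the adjusted p was 0.0608 without noGln culture 2 (log2 fold change -0.25) and 0.0530 without control 2 (-0.22).

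Cyclin D2 (Ccnd2; chr6:127125779-127151048, minus strand) counted 5057, 4924 and 5072 on DON against 7099, 7019.9 and 6863 in controls, and 5243, 5653 and 5575 without Gln against 6690.2, 6631 and 6619. Every treated culture lay below every control, by 1.39-fold on DON (log2 fold change -0.48 ± 0.0805, adjusted p = 0.000119) and 1.21-fold without Gln (-0.28 ± 0.0761, adjusted p = 0.00576). Cyclin D3 (Ccnd3; chr17:47505051-47599691, plus strand) counted 1446, 1508 and 1467 on DON against 2987, 3192 and 2499. Without Gln its counts were 1479, 1201 and 1425 against 2815, 3015 and 2409.8. Both treatments brought Ccnd3 to about the same level, with log2 fold changes of -0.97 ± 0.103 (adjusted p = 1.56e-06) and -1.004 ± 0.110 (adjusted p = 3.95e-06).

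The unequal falls changed the makeup of the D-type cyclin transcripts. As a share of the summed level of the 3 genes in reads per kilobase per M reads (RPKM), Ccnd1 took 79.0% to 79.8% in the control libraries, 63.2% to 64.5% on DON and 81.8% to 82.2% without Gln. Ccnd2 took 12.1% to 13.6% in controls, 24.7% to 25.8% on DON and 12.6% to 13.8% without Gln. The share of Ccnd3 was 7.32% to 8.10% in controls, 10.5% to 11.2% on DON and 4.32% to 5.24% without Gln. Thus Ccnd1 lost share to the other two on DON, whereas Ccnd3 lost share without Gln.

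**Figure D2:**
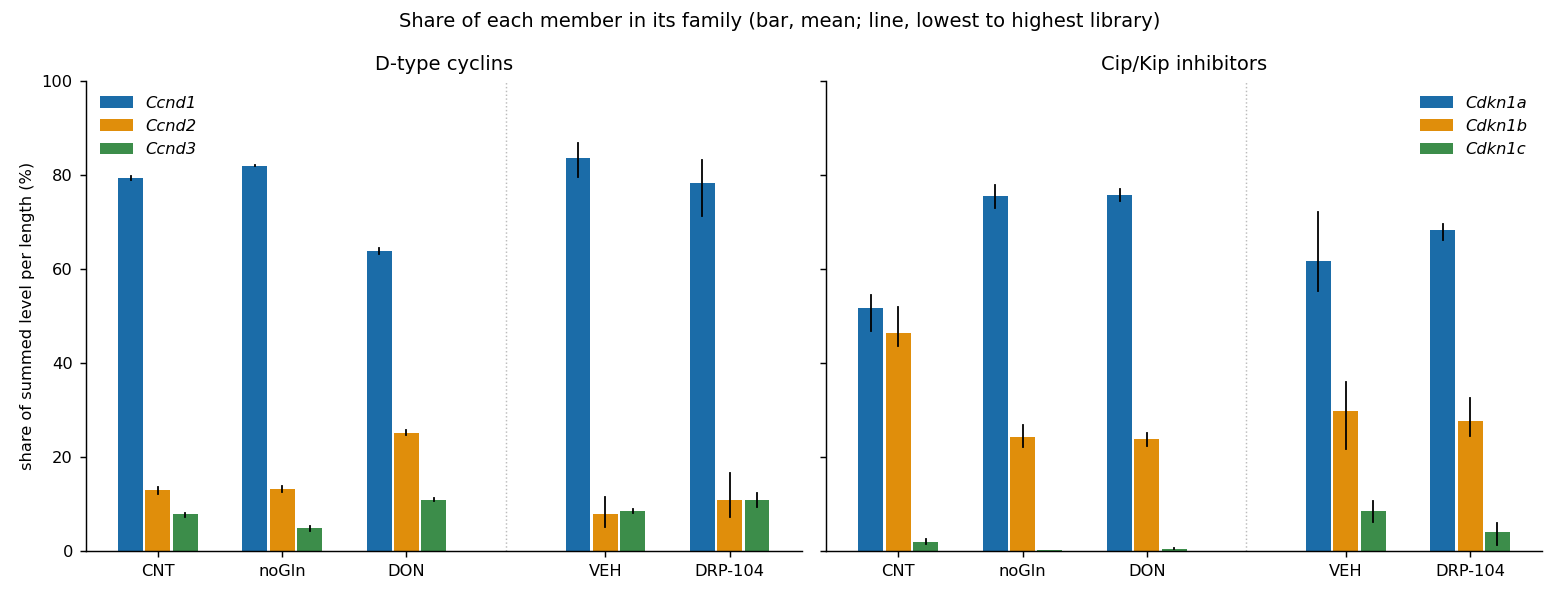
Share of each gene in the summed level of its family (vertical axis, percent of RPKM) in the 5 groups, with the mean as a bar and the lowest to highest of 3 libraries as a line. Ccnd1 falls to 63.2% to 64.5% on DON only, and Cdkn1a rises above 73.0% of the Cip/Kip transcripts both on DON and without Gln.

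Cyclin E1 (Ccne1; chr7:38097984-38107534, minus strand), the usual partner of CDK2 at the start of S phase, counted 74.0, 84.95 and 75.55 on DON against 402, 399.6 and 339.7 in controls. In the Gln-free cultures it counted 107, 86.7 and 58.05 against 379, 377 and 328. No treated library came near a control in either table, and the log2 fold changes were -2.27 ± 0.172 (adjusted p = 4.72e-08) on DON and -2.14 ± 0.213 (adjusted p = 1.64e-06) without Gln. The sequence just before its start is shown because Ccne1 is one of the E2F-dependent genes among the members. It is the RefSeq promoter sequence of GRCm38.p6 at chr7:38107535-38107740, read 5′ to 3′ on the minus strand up to the first base of the annotated gene, with matches to the Sp1 site GGGCGG on either strand in capitals.
Ccne1: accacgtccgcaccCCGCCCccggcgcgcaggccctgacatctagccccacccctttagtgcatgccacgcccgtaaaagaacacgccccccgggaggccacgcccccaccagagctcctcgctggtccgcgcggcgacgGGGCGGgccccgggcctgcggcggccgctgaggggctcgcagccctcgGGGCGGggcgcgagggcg

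In the whole 300-base window of Ccne1, 250 bases before to 50 after the RefSeq start, 4 Sp1 sites were found. Of 32851 RefSeq promoters of this length, 35.7% hold at least 1 Sp1 site. An E2F site, written TTTNNCGC with each N either C or G and searched on both strands, was not found in this window, and 2.26% of all promoters hold it.

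Cyclin E2 (Ccne2; chr4:11191351-11204779, plus strand) did not follow Ccne1. Its counts were 149, 164 and 142 on DON against 209, 177 and 381 in controls, where control 3 was the highest. Without Gln they were 336, 279 and 287 against 197, 168 and 368, so the groups overlapped. The log2 fold change was -0.67 ± 0.241 on DON (adjusted p = 0.0239) and 0.38 ± 0.240 without Gln (adjusted p = 0.172; 95% interval -0.14 to 0.90). Both results rested on single cultures. Without control 3 the change on DON was -0.34 (adjusted p = 0.118) and that without Gln was 0.72 (adjusted p = 0.000815), and the DON call was also lost without DON culture 1 (-0.66, adjusted p = 0.0565) or DON culture 3 (-0.62, adjusted p = 0.0618).

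Cyclin A2 (Ccna2; chr3:36564866-36572150, minus strand), which works with CDK2 in S phase and with CDK1 later, counted 953, 1212 and 741 on DON against 5337, 5474 and 5972. Without Gln it counted 1392, 1024 and 1002 against 5029.8, 5170.35 and 5759.8. These were the largest falls among the member cyclins in either contrast, with log2 fold changes of -2.56 ± 0.141 (adjusted p = 1.91e-09) on DON and -2.24 ± 0.122 (adjusted p = 7.20e-09) without Gln. Proliferation markers moved with it: 10 of 10 tested fell in both contrasts, where 34.7% and 34.9% of all genes fell, among them Plk1, a mitotic kinase (log2 fold change -3.51 and -3.47), and Ccnb2, a mitotic cyclin (-2.95 and -3.67). In bulk RNA, fewer cells of a kind and less RNA per cell cannot be told apart, and the part of the share of cycling cells in the fall of Ccna2 and Ccne1 was not tested.

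Among the inhibitors, p21 (Cdkn1a; chr17:29090979-29100722, plus strand) was the member that rose in both culture contrasts. Its counts were 1995, 1907 and 2126 on DON against 1146, 1091.5 and 1002 in controls. Without Gln they were 3007, 2686.5 and 2777 against 1079.7, 1031 and 967. Every treated culture was above every control, with log2 fold changes of 0.90 ± 0.0982 (adjusted p = 2.00e-06) on DON and 1.46 ± 0.0908 (adjusted p = 2.45e-08) without Gln. Because p21 is a target of p53, the sequence before its first RefSeq start is shown, with exact p53 element matches in capitals. The element is the 10-base unit of which a p53 response site holds a pair. The search allowed no mismatch, so near matches stay in lower case, and the marked units are not given as a pair. The sequence lies at chr17:29090729-29090978, plus strand, GRCm38.p6.
Cdkn1a: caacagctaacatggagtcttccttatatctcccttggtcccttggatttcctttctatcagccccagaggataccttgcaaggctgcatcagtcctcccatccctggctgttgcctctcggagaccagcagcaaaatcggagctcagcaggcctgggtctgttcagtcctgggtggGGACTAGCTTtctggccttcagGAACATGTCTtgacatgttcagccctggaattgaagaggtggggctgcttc

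The 2 p53 elements begin 73 and 51 bases before that start, and 8.36% of all RefSeq promoters hold such an element. The window at the other RefSeq start of Cdkn1a, chr17:29093519-29093818, holds 2 Sp1 sites and no p53 element. Such matches are a description of the sequence and say nothing on binding in these cells.

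p27 (Cdkn1b; chr6:134920401-134925513, plus strand), an inhibitor of cyclin E and cyclin A complexes that is controlled largely through its degradation, fell on DON and was not called without Gln. It counted 1496, 1537 and 1476 on DON against 2206, 2091 and 2649 in controls, a log2 fold change of -0.62 ± 0.104 (adjusted p = 0.000121) with no overlap. Without Gln it counted 2026, 2344 and 2088 against 2079, 1975 and 2554, so that the groups overlapped and the log2 fold change was -0.03 ± 0.108 (adjusted p = 0.838; 95% interval -0.26 to 0.21).

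p57 (Cdkn1c; chr7:143458350-143461050, minus strand) was the rarest member in cells. It counted 11.9, 9.23 and 15.95 on DON against 56.6, 37.5 and 30.5, and 4.18, 8.26 and 4 without Gln against 53.3, 35.4 and 29.4, the last treated values resting on 4, 8 and 4 reads. The log2 fold changes were -1.65 ± 0.410 (adjusted p = 0.00262) and -2.66 ± 0.468 (adjusted p = 0.000235), and few reads limit their precision. The gene passed the filter without Gln through its controls alone, so its call there is no independent support for the count of members. Within the Cip/Kip transcripts, Cdkn1a took 46.7% to 54.4% of the summed level per length in controls, 74.5% to 77.0% on DON and 73.0% to 77.9% without Gln. Cdkn1b took 43.5% to 51.8%, 22.4% to 25.2% and 22.0% to 26.7%, in the same order. The shares reached overlapping ranges under both treatments for Cdkn1a and Cdkn1b, although Cdkn1b itself fell on DON only, whereas the share of Cdkn1c was 0.357% to 0.571% on DON and 0.107% to 0.222% without Gln.

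p15 (Cdkn2b; chr4:89306289-89311032, minus strand), an INK4 inhibitor best known as a target of TGF-β signaling, moved in opposite directions. It counted 4474, 3745 and 4314 on DON against 2681, 2844 and 2427 in controls, with every DON culture higher. Without Gln it counted 1848, 2135 and 2370.2 against 2527, 2686 and 2341, where Gln-free culture 3 lay just above control 3. The log2 fold change was 0.66 ± 0.0987 (adjusted p = 4.44e-05) on DON and -0.25 ± 0.104 (adjusted p = 0.0431) without Gln. That second call was lost without noGln culture 1 (-0.16, adjusted p = 0.214), noGln culture 2 (-0.26, adjusted p = 0.0917), control 1 (-0.25, adjusted p = 0.0909) or control 2 (-0.21, adjusted p = 0.140), and with DESeq2 (-0.25, adjusted p = 0.0523). The rest of the INK4 family fell in both contrasts, 3 of 3 genes, where 34.7% of all genes fell on DON and 34.9% without Gln. Cdkn2a, its neighbor in the genome and the source of p16 and Arf, had a log2 fold change of -0.95 on DON and -0.53 without Gln, Cdkn2c (p18) of -2.01 and -1.23, and Cdkn2d (p19) of -0.81 and -1.49. Cdkn2b was thus the only gene of the 4 in the INK4 family that rose on DON.

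The sequence before the start of Cdkn2b, at chr4:89311033-89311282 on the minus strand of GRCm38.p6, is shown because this gene parted the 2 culture treatments. Capitals mark a CHR element (TTTGAA, here on the opposite strand) and 2 CRE cores (TGACG), which overlap on opposite strands in TGACGTCA.
Cdkn2b: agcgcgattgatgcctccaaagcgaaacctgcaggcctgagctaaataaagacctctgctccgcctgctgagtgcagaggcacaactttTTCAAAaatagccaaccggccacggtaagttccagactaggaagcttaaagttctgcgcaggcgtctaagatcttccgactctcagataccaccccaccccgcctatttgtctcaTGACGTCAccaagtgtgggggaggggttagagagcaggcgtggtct

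CHR elements occur in 17.9% and CRE cores in 20.8% of all RefSeq promoters. The C/EBP-ATF composite site TGATGNAA, found in 3.97% of promoters, was not found in the windows of the 5 members with a RefSeq promoter (Ccne1, Ccnd3, Cdkn1a, Cdkn1b and Cdkn2b), nor was the E2F site.

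Reads from overlapping genes on the opposite strand could not be set apart, since the use of strand in counting is not given in the sources used here. In the GENCODE M21 annotation, 30.7% of exon bases overlapped such a gene in Cdkn1c (Gm44732), 23.4% in Ccnd1 (LTO1), 17.4% in Ccne2 (Ints8), 12.5% in Ccna2 (Exosc9), and 4.11% to 7.86% in Ccnd3, Cdkn1a and Ccnd2. Ccne1, Cdkn1b and Cdkn2b overlapped no other exon.

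To test where DON differs from the mere lack of Gln, the 9 culture libraries were scaled together and DON was compared with noGln directly. Of the members 6 of 10 were called, against 63.3% of 13514 genes, 1 higher and 5 lower on DON. Ccnd1 differed most, at 8013 to 8415 on DON and 22328 to 22954 without Gln (log2 difference -1.46, 95% interval -1.62 to -1.31, adjusted p = 3.32e-10). Ccne2 was lower on DON by -1.02 (adjusted p = 0.000983), Cdkn1b by -0.56 (adjusted p = 0.000130) and Cdkn1a by -0.53 (adjusted p = 5.03e-05), all on the log2 scale and with no overlap. The share of all genes without overlap between DON and noGln was not computed. Cdkn2b was higher on DON, at 3692 to 4393 against 1869 to 2398 (0.94, adjusted p = 8.39e-07). Ccnd2 was called at -0.17 (adjusted p = 0.0371), but leaving out DON culture 1, 2 or 3 or noGln culture 2 or 3 gave adjusted p of 0.0800, 0.101, 0.0697, 0.133 and 0.0990 with differences of -0.17, -0.16, -0.18, -0.15 and -0.16, and quantile normalization gave -0.04 (adjusted p = 0.634).

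The remaining 4 members were not called between DON and noGln. The difference was 0.07 for Ccnd3 (95% interval -0.14 to 0.29), -0.10 for Ccne1 (-0.55 to 0.35), -0.29 for Ccna2 (-0.61 to 0.04) and 1.04 for Cdkn1c (0.04 to 2.03, adjusted p = 0.0642). For Ccna2 the call appeared without DON culture 2 (-0.46, adjusted p = 0.0115), and for Cdkn1c without noGln culture 2 (1.33, adjusted p = 0.0357). The interval of Ccnd3 is the narrowest of these 4.

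**Figure D3:**
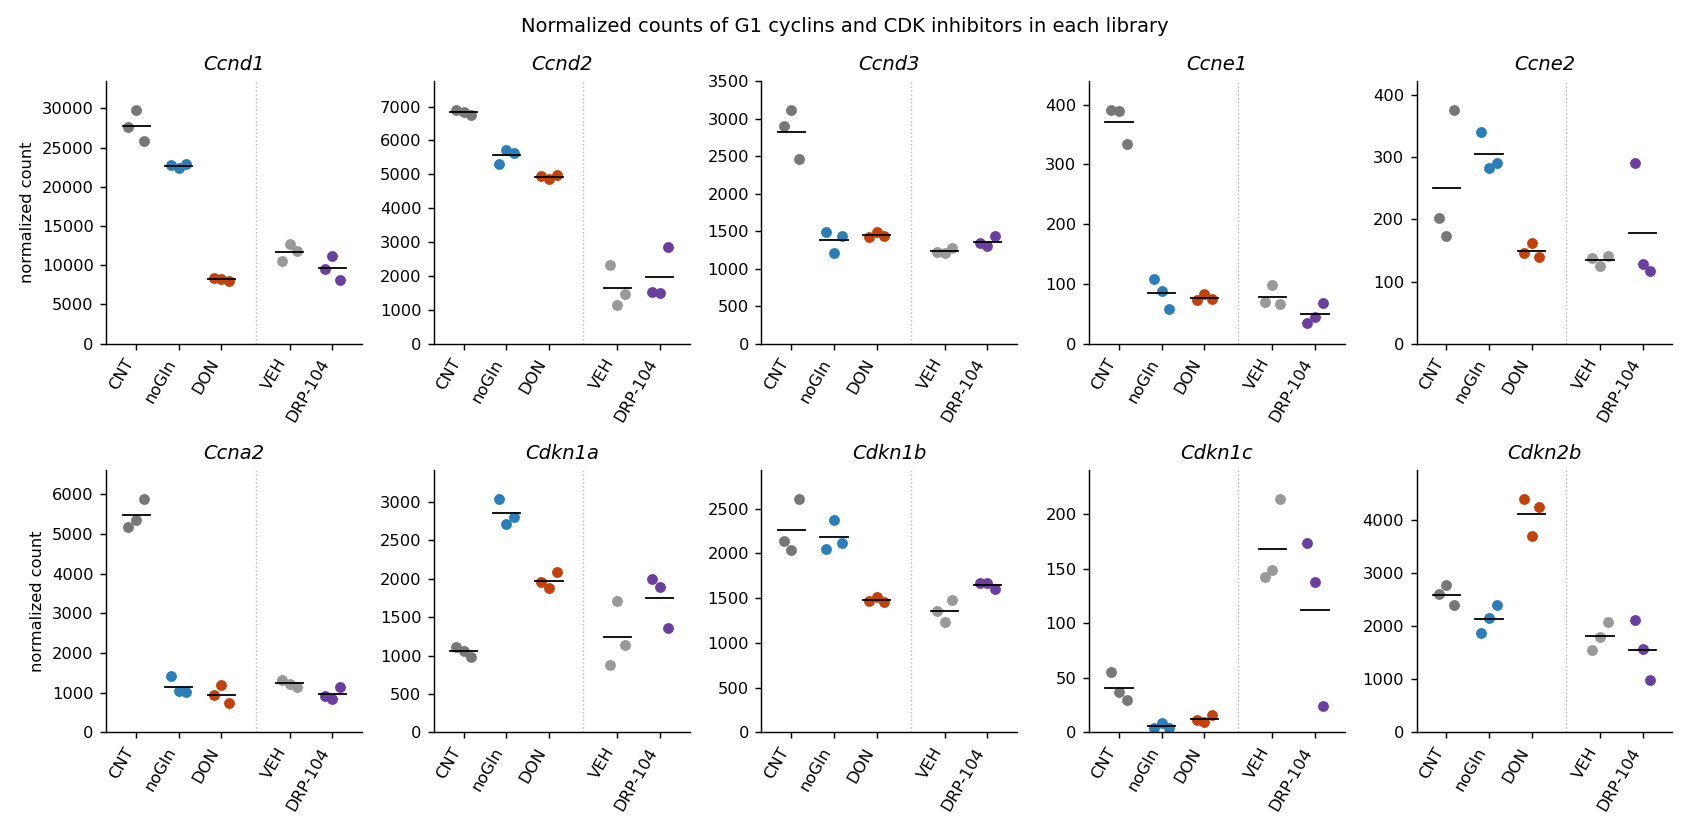
Normalized counts of each member (vertical axis, linear and from 0, with its own range in each panel) in every library, with the group mean as a line. The 9 culture libraries are scaled together and the 6 tumor libraries, right of the dotted line, on a scale of their own. The DON values of Ccnd1, Ccnd2, Ccne2, Cdkn1a, Cdkn1b, Cdkn1c and Cdkn2b overlap neither other culture group. The share of all genes for which this holds was not computed. DRP-104 tumor 3 lies lowest of the 6 tumors for Cdkn1c at 24.5.

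In tumors, none of the members was called on DRP-104, and limma called 0 of 15454 genes (0%), although 775 had an unadjusted p under 0.05. By edgeR 0 genes and by DESeq2 60 genes were called, none of them a member. Values of the 2 tumor groups did not overlap for 10.6% of genes and for 3 members. Ccna2 counted 929, 843 and 1132 on DRP-104 against 1331, 1222 and 1144 in vehicle tumors, with every DRP-104 tumor lower (log2 fold change -0.36, 95% interval -0.72 to 0.01). Ccnd3 counted 1344, 1301 and 1435 against 1225, 1212 and 1272, and Cdkn1b counted 1672, 1670.3 and 1598 against 1358, 1234 and 1481, with every DRP-104 tumor higher in both cases. Their log2 fold changes were 0.14 (95% interval -0.15 to 0.43) and 0.28 (-0.02 to 0.59).

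The other members overlapped between the tumor groups. Ccnd1 counted 9578, 11149 and 8094 on DRP-104 against 10523, 12650 and 11869 (log2 fold change -0.29, 95% interval -0.69 to 0.11). Cdkn1a counted 1992, 1892 and 1364 against 878, 1717 and 1139 (0.53, -0.07 to 1.13). In both genes 1 tumor reached into the other group, and both intervals include 0. The value of Cdkn1a was 0.30 without vehicle tumor 1 and 0.79 without vehicle tumor 2, and that of Ccnd1 was -0.17 without DRP-104 tumor 3. Ccne1 counted 34.2, 45.0 and 67.7 against 70.6, 97.4 and 66.4 (-0.70, -1.59 to 0.20). Ccne2 counted 290, 128 and 118 against 139, 125 and 141 (0.28, -0.56 to 1.12), and without DRP-104 tumor 1, the high one, the log2 fold change was -0.13. Per length, these 2 E-type cyclins were among the 3 lowest members in tumors on DRP-104 and in vehicle tumors.

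The values of Ccnd2, Cdkn1c and Cdkn2b rested on DRP-104 tumor 3, which was the highest tumor for the first and the lowest for the others. Ccnd2 counted 1525, 1488 and 2864 on DRP-104 against 2324, 1144 and 1476 (log2 fold change 0.24, 95% interval -0.50 to 0.99), and -0.07 without that tumor. Cdkn1c counted 173, 137 and 24.5 against 142, 148 and 214 (-0.97, -2.51 to 0.58), and -0.10 without that tumor. Cdkn2b counted 2121, 1562 and 979 against 1557, 1794 and 2086 (-0.28, -0.90 to 0.34), and 0.02 without that tumor. In the same tumor 6 of 6 T cell markers were at their highest, with a summed count of 1211 against 40.4 and 68.4 in the other DRP-104 tumors and 51.95 to 88.5 in vehicle tumors. In DRP-104 tumor 1 there were 4 T cell markers at 0 (Cd3e, Cd3g, Cd8a and Cd4), in DRP-104 tumor 2 there were 2, and no vehicle tumor had more than 1. DRP-104 tumor 1 also had the fewest genes above 0, 17981 against 22140 to 22524 in the other tumors, at similar depth. The part of this in its zeros and in its high Ccne2 value was not tested. Of the macrophage markers 3 of 6 were highest in DRP-104 tumor 3, with a summed count of 8783 against 4431 and 8498 in the other DRP-104 tumors and 5019 to 7775 in vehicle tumors. Fibroblast markers summed to 12043.5 to 21214 on DRP-104 and 25809.6 to 49067.5 in vehicle tumors, and endothelial markers to 998 to 1398 and 1662 to 1878. Neither sum overlapped between the groups, but most of the fibroblast sum was Col1a1 and Col1a2. Gene by gene, Pdgfrb, Dcn and Lum among the fibroblast markers and Kdr among the endothelial markers overlapped, and the others did not. Tumor epithelial markers summed to 109688 to 145685 on DRP-104 and 97999.7 to 139093 in vehicle tumors. Acinar markers ranged from 143 to 728 and from 50.05 to 2352, and islet markers from 157 to 689.7 and from 74.2 to 306. The part of other cell types in the tumor values of these genes was not tested.

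A second tumor table gives FPKM, but its columns could not be matched to the same tumors by number. There, Ccnd1 was 252, 246 and 230 on DRP-104 against 197, 195 and 182 in vehicle tumors (log2 fold change 0.34, 95% interval 0.09 to 0.59, adjusted p = 0.599), the opposite direction to the normalized counts. Ccnd3 was 30.1, 20.3 and 19.1 against 17.8, 16.0 and 17.3 (0.40, -0.03 to 0.82). Values did not overlap for these 2 members, as for 19.3% of 14183 genes. Cdkn1a was 107.5, 62.4 and 95.5 against 38.9, 38.0 and 71.7 (0.85, 0.16 to 1.54, adjusted p = 0.616). Of the 10 members, 7 had opposite signs in the 2 tables, and Ccnd3, Ccna2 and Cdkn1a had the same sign. None was called in either.

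**Figure D4:**
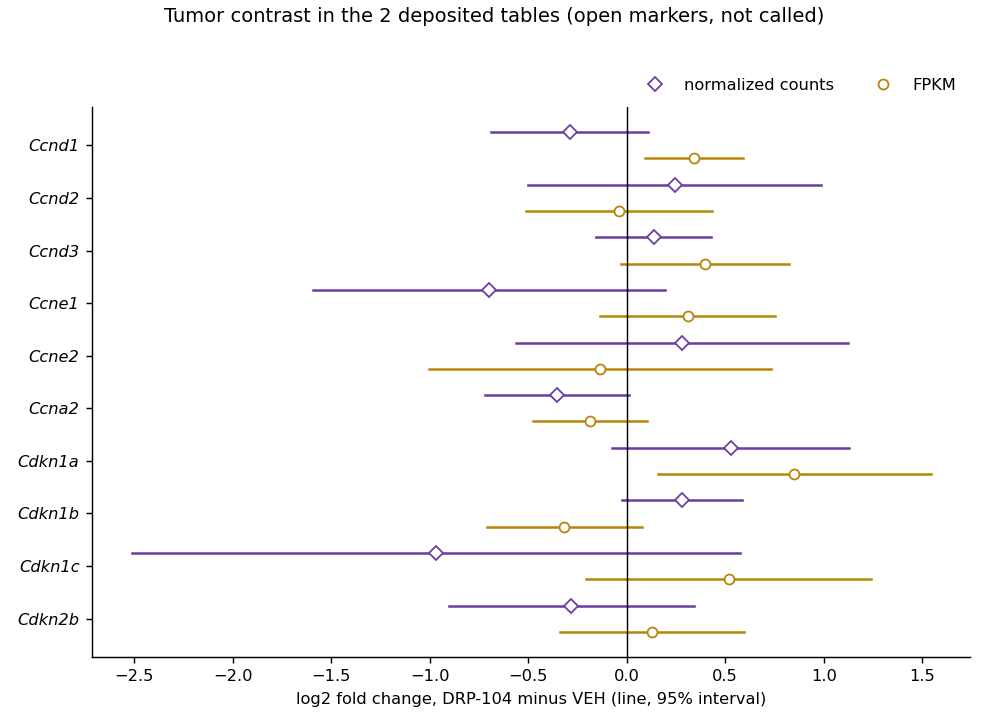
Log2 fold change of each member in DRP-104 against vehicle tumors (horizontal axis, with the 95% limma interval as a line) in the normalized counts and in FPKM. All markers are open, since no member was called, and Ccnd1 lies at -0.29 in one table and 0.34 in the other.

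Whether DRP-104 in tumors and DON in cells moved the members differently was tested as the difference of the 2 log2 fold changes, each taken within its own table. Of the members 6 of 10 were called, against 33.1% of 15070 genes. The log2 fold change was higher in tumors than in cells by 2.20 for Ccna2 (95% interval 1.70 to 2.70), 1.57 for Ccne1 (0.72 to 2.42), 1.47 for Ccnd1 (1.07 to 1.87), 1.10 for Ccnd3 (0.77 to 1.43) and 0.90 for Cdkn1b (0.55 to 1.24). For Cdkn2b it was lower in tumors by -0.94 (-1.59 to -0.28, adjusted p = 0.0296). The Cdkn2b call was lost without DON culture 1 or 3, control 1 or 3, or vehicle tumor 2 or 3, with adjusted p of 0.0529 to 0.0744 and differences of -0.95 to -0.83. Ccnd2 (0.72, -0.04 to 1.48), Ccne2 (0.95, -0.08 to 1.98), Cdkn1a (-0.37, -0.99 to 0.25) and Cdkn1c (0.69, -1.08 to 2.45) were not called. Without vehicle tumor 1 Ccnd2 was called (1.00, adjusted p = 0.0268), and without DRP-104 tumor 3 Cdkn1c was called (1.55, adjusted p = 0.0263). Cells were treated for 24 h and mice over 2 cycles, and doses cannot be matched, so that dose, time and setting cannot be told apart in this contrast.

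**Figure D5:**
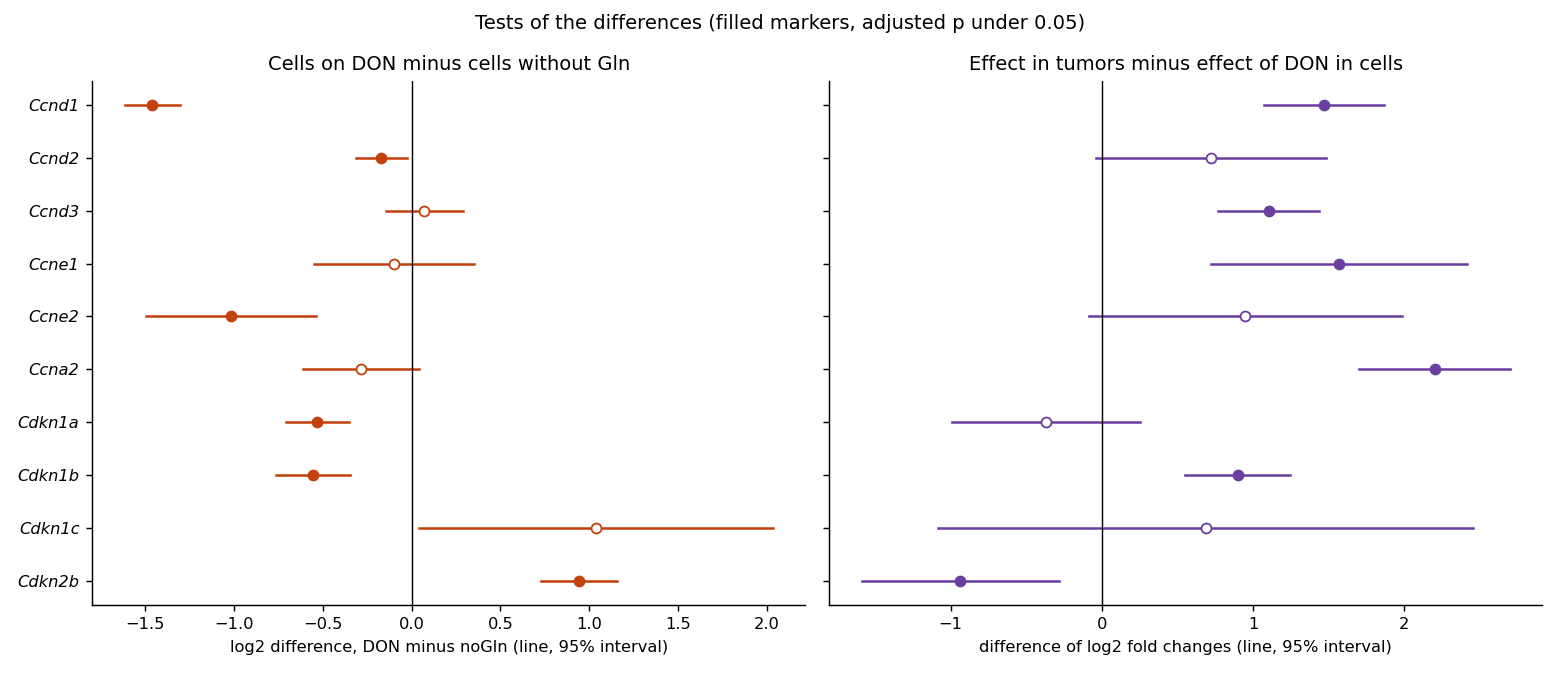
Left, log2 difference of each member between DON and noGln cells. Right, the log2 fold change in DRP-104 tumors minus that in DON cells; lines are 95% limma intervals and filled markers an adjusted p under 0.05. Ccnd1 lies lowest at left (-1.46), and Ccna2 lies highest at right (2.20).

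The members differed widely in level. In control cells, mean levels in RPKM were 229 for Ccnd1, 57.4 for Cdkn2b, 57.2 for Ccna2, 37.1 for Ccnd2, 22.6 for Ccnd3, 17.1 for Cdkn1a, 15.4 for Cdkn1b, 5.74 for Ccne1, 2.61 for Ccne2 and 0.645 for Cdkn1c. Neighbors whose ranges over 3 libraries overlapped were Cdkn2b with Ccna2 and Cdkn1a with Cdkn1b. On DON the order was led by Cdkn2b at 100.1, followed by Ccnd1 at 74.7 and Cdkn1a at 35.1, with Ccna2 down to 10.9 and overlapping Ccnd3 (12.7) and Cdkn1b (11.0). Without Gln, Ccnd1 still led at 205, and Cdkn2b (52.0) and Cdkn1a (50.6) overlapped. In vehicle tumors Ccnd1 (167), Cdkn2b (69.4) and Cdkn1a (34.6) were the highest, as they were on DRP-104 (136, 58.4 and 48.2). An inhibitor was thus the most abundant member per length in 1 of the 5 groups, the cells on DON.

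The partners of the members were described through lists of the pathway. Among 20 tested genes of the other G1 and S machinery, 5 rose and 10 fell on DON, and 6 rose and 9 fell without Gln, with medians of -0.32 and -0.15. Over all genes 68.1% were called on DON and 69.4% without Gln. The kinases of the D-type cyclins did not move together: Cdk4 had a log2 fold change of 0.30 on DON and -0.68 without Gln, and Cdk6 of -1.07 and 0.41, all 4 called. E2f2, an activating E2F factor, was lowest on DON (-2.60, from 828 ± 72.8 to 136 ± 19.1, SD, n = 3) and at -0.37 without Gln. E2f8, a repressing E2F factor, was lowest without Gln (-2.36, and -2.50 on DON), and Mnat1, a subunit of the CDK-activating kinase, rose most in both (0.88 and 1.30). Cdk4 and Cdk6 are named here after their values were seen.

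S phase genes under E2F control fell in 15 of 16 cases on DON and in 12 of 16 without Gln, and none rose. Over all genes 34.7% fell on DON and 34.9% without Gln. The median log2 fold changes of the list were -0.86 and -0.74. Tk1, thymidine kinase, fell most in both (-3.08 and -2.92, from 4839 ± 224 to 575 ± 92.5 on DON). Pcna, the replication clamp, fell by 0.35 on the log2 scale without Gln and was at -0.02 on DON, and Cdt1, a licensing factor, fell by 0.36 on DON and was at 0.05 without Gln.

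Of 24 tested genes for p53 and its targets, 15 rose and 5 fell on DON, and 13 rose and 7 fell without Gln, with medians of 0.53 and 0.50. Over all genes 33.3% rose and 34.7% fell on DON, and 34.5% rose and 34.9% fell without Gln. Gdf15, a stress-induced cytokine, rose most on DON (2.53, and 1.58 without Gln), and Plk2 rose most without Gln (3.51, and 2.41 on DON). Btg2, an antiproliferative gene, fell most on DON (-2.70, and -0.40 without Gln), and Sesn1 fell most without Gln (-1.37, and -1.04 on DON).

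Regulators upstream of the members, most of them transcription factors and with the secreted ligand Tgfb1 among them, were mixed, with 11 higher and 8 lower of 22 on DON and 8 higher and 10 lower without Gln, beside 33.3% higher and 34.7% lower and 34.5% and 34.9% over all genes. Ddit3, a factor of the integrated stress response, rose most in both (4.64 and 4.48), and Mycn fell most (-3.26 and -3.17). Mycn was at 3.27 ± 2.84 on DON against 32.4 ± 15.3 in controls (SD). Without Gln it was at 3.42 ± 3.17 against 30.7 ± 14.3. It passed the filter on low values only through the control libraries, and few reads limit the precision of its changes. Genes of cyclin and inhibitor turnover showed 1 rise and 6 falls of 14 on DON and 3 rises and 6 falls without Gln, beside calls for 68.1% and 69.4% of all genes. Cks2 fell most on DON (-1.40) and Cks1b, a cofactor of the ligase that degrades p27, fell most without Gln (-1.14, and -1.33 on DON). Ambra1, which brings D-type cyclins to their ligase, rose most on DON (0.35), and Dtl, which acts on p21, rose most without Gln (0.68). In proliferation markers Birc5 (-1.35) fell least on DON and Cdk1 (-1.51) least without Gln. No gene of any of these lists was called on DRP-104.

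Genes whose pattern over the 9 culture libraries was most like that of Ccnd1, among 10422 genes with a mean of at least 100, were Adora2a (Pearson r = 0.999), Abcc4 (0.999) and Car2 (0.998). For Cdkn1a they were Zfp212 (0.993), Vps33a (0.992) and Otud1 (0.992). Otud1 had mean scaled counts of 245 in controls, 559 on DON and 839 without Gln. These correlations are descriptions over libraries that fall into 3 groups and share their scaling.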

How the data were processed

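Bulk RNA-seq covered 15 samples in 5 groups of 3. Per the labels, the authors' processing used HISAT2, DESeq2, CASAVA and STAR 2.5, and the counting tool and the use of strand are not given in the sources used here. The deposited signal values are gene counts that the authors divided by 1 size factor per sample, in a separate table for each comparison. The deposited FPKM values, which the authors normalized for gene length and library size, cover tumors only, and their gene positions match GRCm38 (89.8% of 34490 genes within 1000 bases of GENCODE M21), although the labels name GRCm39. Columns with the authors' own fold changes and p-values were not used. The step between low values in a column is what 1 read is worth, and division by it gave back whole reads (tolerance 0.0051), whose number is the depth. Even read numbers made up 69.6% to 72.7% of genes at 1 to 20 reads in the cultures and 41.9% to 46.5% in the tumors. Reads carry no molecular identifiers, so reads are not independent molecules.

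Differences were tested with limma 3.58.1 (lmFit, eBayes with trend; R 4.3.3) on log2(value + 1), for genes with a mean of at least 10, with Benjamini-Hochberg adjustment and a threshold of 0.05. DON and noGln were compared on recovered reads, with joint size factors (median of ratios) for the 9 culture libraries, and the tumor and cell effects by an interaction contrast over 12 libraries. Exact permutation tests were two-sided. Fold differences in the text are ratios of group means. Alternatives were edgeR 4.0.16 and DESeq2 1.42.0 on recovered reads, pseudocounts of 0.5 and 5, no filter or a mean of at least 50, a threshold of 0.01, quantile normalization, the FPKM table (mean of at least 0.5), a replicate block and leaving out each library. The main limma, edgeR and DESeq2 fits of each comparison were also run on simulated data, and the other alternatives were not. Same-numbered samples did not deviate together (correlations of -0.44, 0.05 and -0.46 for DRP-104 and VEH, and of -0.05, 0.01 and 0.26 for DON and noGln), so the numbers were not taken as pairs.

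The members, gene lists and tests were chosen with earlier results of these data known. All 10 members were named, and from each list the called genes with the highest and lowest log2 fold change in each culture contrast. Also named were the 3 genes most like Ccnd1 and Cdkn1a by Pearson r. The motifs were searched on both strands of RefSeq promoters (GRCm38.p6), which were given for 5 of 10 members. Tables were handled in Python 3.11.15 with numpy 2.4.6 and pandas 2.3.3, and plots were drawn with matplotlib 3.10.9.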

Additional observations from a re-analysis of the deposited data

Results flagged for a closer look

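For 6 members the effect of DRP-104 in tumors and that of DON in cells differed in the limma interaction test. The difference of the log2 fold changes, tumors minus cells, was 2.20 for Ccna2 (-0.36 in tumors, -2.56 in cells), 1.57 for Ccne1 (-0.70 and -2.27), 1.47 for Ccnd1 (-0.29 and -1.76), 1.10 for Ccnd3 (0.14 and -0.97), 0.90 for Cdkn1b (0.28 and -0.62) and -0.94 for Cdkn2b (-0.28 and 0.66). In the FPKM table the tumor values of Ccnd1, Ccne1, Cdkn1b and Cdkn2b had the opposite sign (0.34, 0.31, -0.32 and 0.13), and the interaction could not be fitted there because the table holds no cells. Cells and tumors also differ in time, dose and the cell types present, which cannot be told apart from the treatment in this contrast.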

How the results depend on the processing

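Of 50 member changes (10 members in 5 comparisons), 30 kept their direction and their side of the threshold under every alternative run. The number of members called stayed within 9 to 10 after DON, 6 to 9 without Gln, 0 on DRP-104, 5 to 6 between DON and noGln and 5 to 7 for tumors against cells. In the FPKM table the sign turned for Ccnd1 (0.34), Ccnd2 (-0.037), Ccne1 (0.31), Ccne2 (-0.14), Cdkn1b (-0.32), Cdkn1c (0.52) and Cdkn2b (0.13), none of them called, and the cause was not tested. With each library left out in turn, sign changes occurred in values that were not called: Cdkn1b without Gln ranged from -0.10 to 0.084, Ccnd2, Ccne2 and Cdkn2b on DRP-104 from -0.066 to 0.52, -0.13 to 0.51 and -0.54 to 0.016, and Ccnd3 and Ccne1 between DON and noGln from -0.020 to 0.13 and -0.34 to 0.094.

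At a threshold of 0.01 Ccne2 after DON, Ccnd1 and Cdkn2b without Gln, Ccnd2 between DON and noGln and Cdkn2b for tumors against cells were lost. Under quantile normalization the genes as a whole shifted (median change after DON from 0.02 to 0.13 on the log2 scale, tumors against cells from -0.02 to -0.13). It took away the call of Ccne2 after DON (-0.45, adjusted p = 0.113) and gave one without Gln (0.55, adjusted p = 0.0499). On DRP-104, DESeq2 called 60 of 15454 genes where limma and edgeR called 0.

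With a replicate block, 0 members were called on DRP-104 and 6 between DON and noGln, and no member tested changed its call (Cdkn1c missed the filter between DON and noGln). The block was not run for DON or noGln against controls, nor for tumors against cells, since the control columns carry no replicate number of their own group. Depth limits Cdkn1c, which rests on 4 to 8 reads in Gln-free cells.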
